A study of Mus musculus with 6 samples.

Results

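The genes described here encode the protein factors that start and extend polypeptides on the cytosolic ribosome, together with the kinases, binding proteins and methyltransferases named after them. They were chosen by name alone, as all genes called Eif1 to Eif6 or Eef1 to Eef2 with any suffix and without the pseudogene mark -ps, which gave 65 of the 11175 genes listed. RNA was sequenced from splenic CD8+ T cells of mice with the genotype label WT, activated in culture for 48 h with antibodies to CD3 and CD28. In 3 libraries the cells had also received DOPAC (3,4-dihydroxyphenylacetic acid, a breakdown product of dopamine), and in the 3 control libraries they had not. The labels give no dose, sex or age of the mice. They do not say whether replicates came from separate animals or cultures, so a p-value here sets the difference against library-to-library spread that may be technical.

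Translation starts when eIF2 brings the initiator methionyl-tRNA to the small ribosomal subunit, where eIF1, eIF1A, eIF3 and eIF5 organise the search for the start codon, while the eIF4F complex binds the cap of the mRNA and unwinds its leader. After subunit joining, eEF1A delivers each aminoacyl-tRNA and eEF2 moves the ribosome along by a codon. Resting T cells make little protein and raise translation greatly on activation. The main switches are phosphorylation of the eIF2 alpha subunit by stress kinases and capture of the cap-binding protein eIF4E by 4E-binding proteins. Both act on proteins, which these data did not measure.

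Expression was given as FPKM (fragments per kilobase of transcript, scaled to the mapped fragments of the library), from which sequencing depth cannot be read. Of the 6 listed CD8 T cell markers all were measured, with Cd8a between 153 and 202 FPKM in the 6 libraries. Gzmb, the granzyme B gene of activated killer cells, had 1248, 673 and 809 FPKM in DOPAC libraries, against 694, 535 and 582 FPKM in controls, with DOPAC replicate 1 the highest library. The macrophage genes Lyz2 and Cd68 (the 2 measured of 4 listed markers) summed to 4.45 to 12.4 FPKM in DOPAC libraries, against 14.2 to 33.8 FPKM in controls, and the collagen genes Col1a1 and Col1a2 to 0.234 to 13.7 FPKM, against 21.1 to 23.5 FPKM. The globin genes Hbb-bs and Hba-a1 summed to 0.280 to 3.02 FPKM with DOPAC, against 2.72 to 10.4 FPKM in controls. The part of these other cells and of Gzmb in the results below was not tested. Control replicate 1 stood apart: over 10887 genes its log2 values correlated with the other 5 libraries at 0.899 to 0.917, where those 5 gave 0.974 to 0.992 among themselves, and the counts and most log2 fold changes below are therefore given with and without it.

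Translation factors made up several percent of all transcripts by FPKM. The 65 genes held 3.52%, 3.59% and 3.61% of the summed FPKM in DOPAC libraries, against 3.00%, 3.55% and 3.57% in controls. Control replicate 1 was the low library, and the other controls lay above DOPAC replicate 1 and below DOPAC replicates 2 and 3. Mean levels ran from 3.32 FPKM for Eef2k, the kinase that inhibits eEF2, to 3915 FPKM for Eef1a1, the carrier of aminoacyl-tRNA, with a median of 44.3 FPKM, against 7.67 FPKM for all genes tested. Of the 65 genes 16 averaged at least 100 FPKM and 11 less than 10 FPKM. All 65 were above the filter of 1 FPKM used for the tests.

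**Figure D1:**
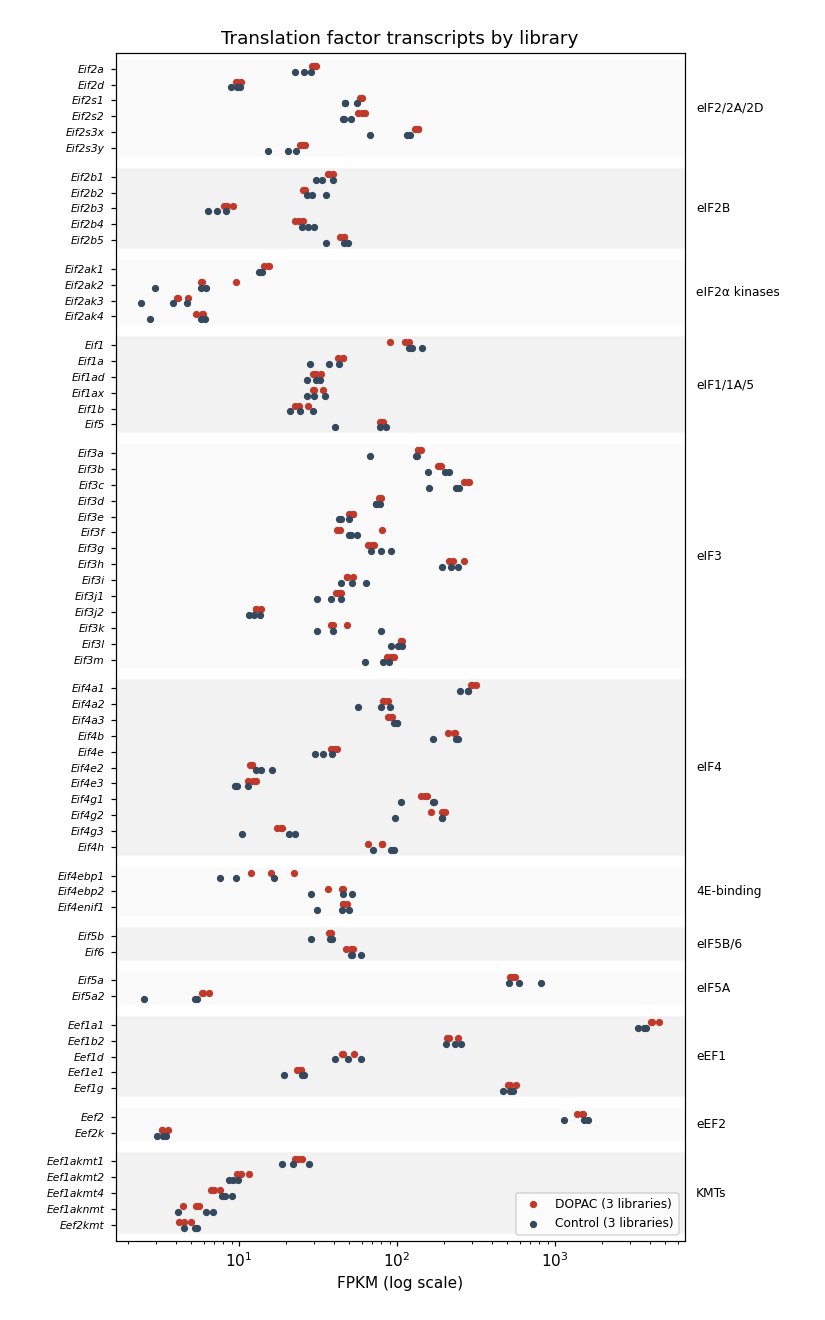
FPKM on a log axis for the 65 genes, with 1 point per library (DOPAC red, control dark blue), grouped by role; KMTs are the lysine methyltransferases. Eef1a1 averaged 3915 FPKM and Eef2k 3.32 FPKM, and in most rows the points of both groups overlap.

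No translation factor gene passed the test. With limma's moderated test of log2(FPKM + 1), 0 of the 65 genes were below 0.05 after Benjamini-Hochberg adjustment (lowest adjusted p 0.801), and of all 10887 genes tested it was 0%. Without control replicate 1 again 0 of the 65 passed (lowest limma adjusted p 0.295), beside 0.0184% of all genes. The authors' deposited table likewise held 0 of the 65 at an adjusted p under 0.05, and 1 at an unadjusted p under 0.05. The log2 fold changes (DOPAC over control, which understate the change of genes with low values) had a median of 0.07, with 47 above 0 and 18 below. The median of all genes was 0.07 as well. Without control replicate 1 the medians were 0.03 for the 65 genes, 36 of them positive, and -0.01 for all genes. In bulk RNA, fewer cells of a type and less RNA per cell cannot be told apart.

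At an unadjusted p under 0.05 the count higher with DOPAC was 1 of the 65 genes, the eIF2 beta subunit gene Eif2s2. Of all 10887 genes it was 297 (2.73%). Lower were 0 of the 65, beside 159 of 10887 (1.46%). With replicate number as a block, 2 of the 65 were higher (Eif2s2 and Eif4ebp1), beside 278 of 10887 (2.55%). Then 0 of the 65 were lower, beside 208 of 10887 (1.91%). Without control replicate 1, 5 of the 65 were higher, beside 606 of 10887 (5.57%), and 5 of the 65 lower, beside 968 of 10887 (8.89%). These 5 higher genes were Eif2s2, Eif2s3x, Eif2s3y, Eif3c and Eif4ebp1. The 5 lower ones were Eif4g1, Eif4g3, Eif4h, Eef1aknmt and Eef1akmt4. For 13 of the 65 genes each DOPAC library exceeded each control, beside 1348 of all 10887 genes (12.4%). For 5 of the 65 each was under, beside 523 of 10887 (4.8%). When every library was scaled to the same FPKM sum, 7 of the 65 were above, beside 726 of 10887 (6.67%). Below were 8 of the 65, beside 733 of 10887 (6.73%). With log2 values shifted to equal medians, 12 of the 65 were above, beside 1284 of 10887 (11.8%). Below were 5 of the 65, beside 794 of 10887 (7.29%). Against control replicates 2 and 3 alone, the DOPAC libraries were all above for 15 of the 65, beside 1669 of 10887 (15.3%). They were all below for 14 of the 65, beside 2336 of 10887 (21.5%).

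**Figure D2:**
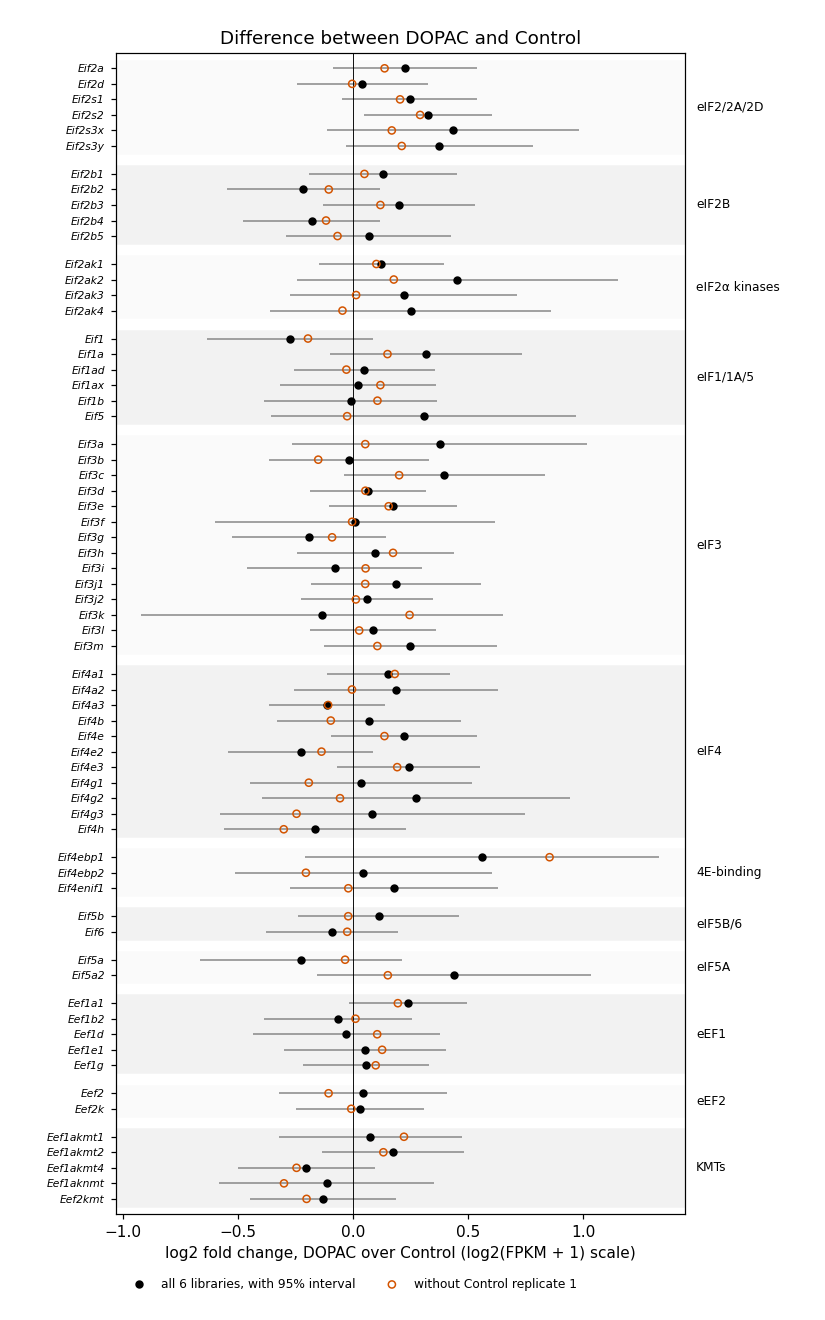
Log2 fold change (DOPAC over control) of each of the 65 genes by role, with filled points and 95% intervals from all 6 libraries and open points from the 5 libraries without control replicate 1. Of the intervals shown, that of Eif2s2 (0.04 to 0.61) leaves out 0, and for Eif3a and Eif4g2 the open points (0.05 and -0.06) lie well below the filled ones (0.38 and 0.27).

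Among the role groups, eIF2 and the other carriers of the initiator tRNA had the highest median log2 fold change with all 6 libraries, though the eIF2 alpha kinases came first when control replicate 2 was left out or the pseudocount was 0.1. Eif2s2, on chromosome 2 at 154871410 to 154892935, had 60.3, 56.8 and 63.1 FPKM in DOPAC libraries, against 45.4, 46.4 and 51.4 FPKM in controls. Its log2 fold change was 0.32 (95% interval 0.04 to 0.61), and 0.29 without control replicate 1. Eif2s1, which encodes the alpha subunit that stress kinases phosphorylate and lies on chromosome 12 at 78861819 to 78887010, had 60.5, 59.4 and 58.9 FPKM with DOPAC, against 47.2, 47.3 and 56.4 FPKM in controls. The groups did not overlap for either gene, though control replicate 3 came close to the DOPAC libraries for Eif2s1. Its log2 fold change was 0.25 (95% interval -0.05 to 0.54), and 0.20 without control replicate 1. Gm12734 matches Eif2s1 at 96.8% over 949 bases, so the reads of Eif2s1 are uncertain.

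The gamma subunit, which binds GTP and the initiator tRNA, is encoded in the mouse by a gene on each sex chromosome. Eif2s3x, on the X chromosome at 94188707 to 94212862, had 136, 130 and 136 FPKM in DOPAC libraries, against 68.1, 117 and 122 FPKM in controls. Eif2s3y, on the Y chromosome at 1010543 to 1028847, had 26.4, 24.5 and 25.3 FPKM with DOPAC, against 15.3, 20.5 and 23.1 FPKM in controls. Both were lowest in control replicate 1, and in both every DOPAC library exceeded every control. The log2 fold changes were 0.43 for Eif2s3x (0.17 without control replicate 1) and 0.37 for Eif2s3y (0.21). The ratio of the Y copy to the X copy was 0.194, 0.189 and 0.185 in DOPAC libraries, against 0.224, 0.176 and 0.190 in controls, so the groups overlapped in it. The Y-linked gene was present in all 6 libraries, while the labels do not state the sex of the mice. Reads of Eif2s3x are uncertain, since Gm2223 matches it at 100% over 1350 bases, and Gm2223 itself had 4.15 to 8.30 FPKM.

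The bases around the annotated starts of these 4 genes are shown because they encode the subunits of eIF2 described above. They come from RefSeq on GRCm38.p6 (the mm10 build), each with 40 bases before the start in lower case and 20 bases from the start on in capitals, on the strand of the gene.
Eif2s1 (chr12:78862032-78862091, plus strand): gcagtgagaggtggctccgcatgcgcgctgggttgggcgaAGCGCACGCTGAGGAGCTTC
Eif2s2 (chr2:154892887-154892946, minus strand): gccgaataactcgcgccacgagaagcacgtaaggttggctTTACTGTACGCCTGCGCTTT
Eif2s3x (chrX:94212632-94212691, minus strand): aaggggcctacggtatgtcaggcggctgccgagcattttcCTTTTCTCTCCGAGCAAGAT
Eif2s3y (chrY:1010555-1010614, plus strand): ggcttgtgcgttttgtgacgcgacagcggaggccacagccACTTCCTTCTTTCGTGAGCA

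Over the 17 alternative settings the log2 fold change of each of the 4 genes stayed positive, between 0.14 and 0.33 for Eif2s1, 0.19 and 0.38 for Eif2s2, 0.16 and 0.58 for Eif2s3x and 0.18 and 0.49 for Eif2s3y. Every DOPAC library exceeded every control for these genes, so only the scaling and length settings could have turned the sign. In 0 of the 17 settings did a limma adjusted p fall under 0.05 (lowest 0.285, for Eif2s2). The unadjusted limma p of Eif2s2 was not under 0.05 with equal FPKM sums or with the length trend removed. Nor was it when control replicate 2 or any DOPAC library was left out. With the length trend removed, the genes higher at that level were Eef1a1, Eif2s3y, Eif3c and Eif4e3. Scaled to equal FPKM sums, Eif2s1 overlapped between the groups, and the other 3 genes did not. Among the other initiator tRNA carriers, Eif2a, whose product can deliver tRNA without eIF2, had 30.3, 29.2 and 30.7 FPKM with DOPAC, against 22.5, 25.9 and 28.7 FPKM in controls. Eif2d averaged 9.92 ± 0.379 FPKM with DOPAC and 9.63 ± 0.603 FPKM in controls (SD, n = 3 each), and its groups overlapped. As a role group the 6 carriers had a median log2 fold change of 0.29 (0.19 without control replicate 1 and 0.17 with the length trend removed), beside 0.07 and -0.01 for all genes.

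**Figure D3:**
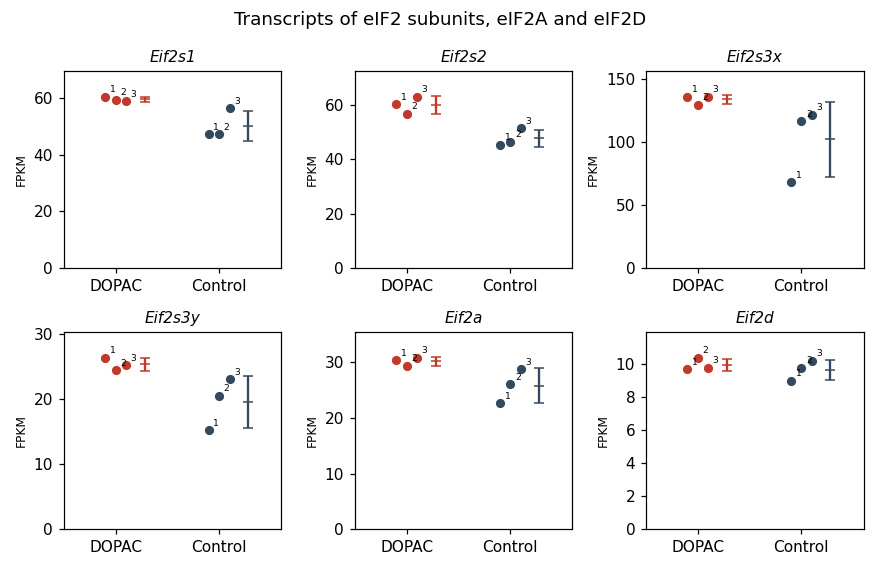
FPKM of the eIF2 subunit genes, Eif2a and Eif2d in each library (numbers are replicates), with mean and SD beside the points. The DOPAC points lie above the control points in every panel but Eif2d, and control replicate 1 is far below the rest for Eif2s3x at 68.1 FPKM.

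The genes of eIF2B, the exchange factor that reloads eIF2 with GTP, had no common direction. Of its 5 subunit genes 3 had positive and 2 negative log2 fold changes (median 0.07, and -0.07 without control replicate 1). Eif2b5, the catalytic epsilon subunit, had the highest level, with 43.9, 46.6 and 46.2 FPKM in DOPAC libraries, against 35.9, 46.4 and 49.4 FPKM in controls. The gamma subunit gene Eif2b3 was the lowest, at 8.55 ± 0.533 FPKM with DOPAC and 7.34 ± 0.960 FPKM in controls (SD, n = 3 each). Its ratio to Eif2b5 averaged 0.188 ± 0.0123 with DOPAC and 0.168 ± 0.0109 in controls. The groups overlapped in this ratio, at 0.174 in DOPAC replicate 2 and 0.179 in control replicate 1. Eif2b2, the beta subunit gene, was the member of the complex whose DOPAC libraries all lay below the controls, at 26.1, 26.1 and 25.4 FPKM against 35.5, 26.9 and 29.0 FPKM.

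The 4 kinases of eIF2 alpha were scarce transcripts. Eif2ak1, the heme-regulated kinase, had 15.6, 15.3 and 14.4 FPKM in DOPAC libraries, against 13.4, 13.9 and 14.1 FPKM in controls, a separation by a narrow margin. Eif2ak2, the kinase PKR that senses double-stranded RNA, had 9.63, 5.75 and 5.82 FPKM with DOPAC, against 2.93, 5.75 and 6.21 FPKM in controls. DOPAC replicate 1 was the high library and control replicate 1 the low one, and the other 4 libraries were alike. Eif2ak3, the kinase PERK of the endoplasmic reticulum, had 4.77, 4.14 and 4.04 FPKM with DOPAC, against 2.42, 4.72 and 3.84 FPKM in controls. Eif2ak4, the kinase GCN2 that senses uncharged tRNA, had 5.34, 5.90 and 5.84 FPKM, against 2.73, 6.09 and 5.73 FPKM. The log2 fold changes of the 4 were 0.12, 0.45, 0.22 and 0.25 with all libraries, and 0.10, 0.18, 0.01 and -0.05 without control replicate 1, in which all 4 had their lowest value.

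Among the factors that select the start codon, Eif1, whose product guards the accuracy of that choice, had 90.5, 113 and 119 FPKM in DOPAC libraries, against 145, 120 and 126 FPKM in controls. The groups did not overlap, but DOPAC replicate 3 and control replicate 2 nearly met. Its log2 fold change was -0.28 (95% interval -0.64 to 0.09), -0.20 without control replicate 1 and -0.16 without DOPAC replicate 1, and 13 other genes of the annotation match it at 95% or more over at least 300 bases, so its reads are uncertain. Its paralog Eif1b had 27.2, 24.0 and 22.8 FPKM with DOPAC, against 29.4, 21.3 and 24.5 FPKM in controls.

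Mouse eIF1A, which works beside eIF1 on the small subunit, comes from the autosomal gene Eif1a and the X-linked Eif1ax. Eif1a had 46.0, 42.7 and 45.6 FPKM in DOPAC libraries, against 28.1, 37.4 and 43.3 FPKM in controls, and Eif1ax had 34.1, 29.9 and 29.7 FPKM, against 35.2, 27.2 and 30.1 FPKM. Only control replicate 1 had less Eif1a than Eif1ax, with a ratio of 0.796 where the DOPAC libraries had 1.35, 1.43 and 1.54 and the other controls 1.38 and 1.44. Eif5, which triggers GTP hydrolysis on eIF2, averaged 80.5 ± 1.51 FPKM with DOPAC and 68.2 ± 24.3 FPKM in controls (SD, n = 3 each), the low control again being replicate 1 at 40.5 FPKM.

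The eIF3 complex is the scaffold that holds the mRNA and the other factors on the small subunit. Its 14 genes spanned 12.9 FPKM for Eif3j2 to 246 FPKM for Eif3c. Their median log2 fold change was 0.08 (10 positive and 4 negative), and 0.05 without control replicate 1. Eif3c, the most abundant, lies on chromosome 7 at 126546455 to 126566411 and had 281, 267 and 285 FPKM in DOPAC libraries, against 160, 247 and 236 FPKM in controls. All DOPAC libraries lay above the controls. Its log2 fold change was 0.40 (95% interval -0.04 to 0.83), and 0.20 without control replicate 1. Eif3a and Eif3e also had all DOPAC libraries above the controls, by narrow margins. Eif3a averaged 138 ± 3.29 FPKM with DOPAC and 111 ± 38.0 FPKM in controls (SD, n = 3 each). Eif3e averaged 51.6 ± 1.54 and 45.8 ± 3.51 FPKM (SD, n = 3 each). The lowest DOPAC and highest control values were 135.9 and 134.5 FPKM for Eif3a, and 49.86 and 49.78 FPKM for Eif3e. Control replicate 1 had 67.6 FPKM of Eif3a, whose log2 fold change was 0.38, or 0.05 without that library.

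In the eIF3 genes Eif3f and Eif3k, chosen after their values were seen, 1 library decided the spread. Eif3k, a small non-core subunit, had 48.7, 39.5 and 38.2 FPKM in DOPAC libraries, against 78.9, 31.5 and 39.3 FPKM in controls. Its log2 fold change was -0.14, and 0.24 without control replicate 1, the high library. Eif3f, a subunit with a fold of the deubiquitinase family, had 80.2, 41.6 and 43.6 FPKM with DOPAC, against 51.5, 55.8 and 50.01 FPKM in controls. DOPAC replicate 1 was high there, the other DOPAC libraries were below every control, and the log2 fold change was 0.01, or -0.29 without that library. The near-copies Eif3j1 (on chromosome 2) and Eif3j2 (on chromosome 18) match at 99.4% over 2379 bases, so their split is uncertain. Eif3j1 had 42.8, 41.4 and 44.3 FPKM with DOPAC, against 31.1, 38.4 and 44.4 FPKM in controls, and Eif3j2 had 13.7, 12.8 and 12.9 FPKM, against 11.7, 12.5 and 13.5 FPKM.

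Of the cap-binding group, the helicase gene Eif4a1 was the most abundant. Eif4a1, on chromosome 11 at 69666936 to 69672423, had 316, 294 and 298 FPKM in DOPAC libraries, against 283, 251 and 284 FPKM in controls, with a log2 fold change of 0.15 (95% interval -0.11 to 0.42), or 0.18 without control replicate 1. The groups did not overlap. The pseudogene Eif4a-ps4, which matches it closely and is not among the 65 genes, was listed at 262, 237 and 244 FPKM with DOPAC, against 183, 195 and 239 FPKM in controls, so the level of Eif4a1 is uncertain. Eif4a2 had 82.0, 83.4 and 88.2 FPKM, against 56.7, 79.1 and 91.0 FPKM. Eif4a3, the helicase of the exon junction complex, had 88.2, 92.7 and 92.2 FPKM with DOPAC, against 99.7, 95.8 and 101 FPKM in controls. All DOPAC libraries lay below the controls in Eif4a3, by a small step (log2 fold change -0.12, 95% interval -0.37 to 0.14, and -0.11 without control replicate 1).

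The genes of the cap-binding proteins themselves had log2 fold changes of both signs. Eif4e, the cap-binding subunit of eIF4F, had 41.8, 38.5 and 40.2 FPKM in DOPAC libraries, against 30.4, 34.3 and 38.8 FPKM in controls. Eif4e2, which encodes a relative of eIF4E known for repressing translation, had 11.8, 12.2 and 12.1 FPKM with DOPAC, against 16.3, 12.8 and 13.8 FPKM in controls. Eif4e3, another member of the family, had 12.8, 11.5 and 12.2 FPKM, against 9.40, 9.75 and 11.4 FPKM. Gm20696 overlaps 14.8% of the exon length of Eif4e3, so the reads of Eif4e3 are uncertain. Groups overlapped for Eif4e only. The ratio of Eif4e3 to Eif4e2, a contrast picked after their values were seen, was 1.09, 0.947 and 1.01 in DOPAC libraries, against 0.578, 0.761 and 0.826 in controls. With Eif4e3 above and Eif4e2 below the controls in every DOPAC library, this ratio could not overlap, so it adds no further result. The single log2 fold changes were 0.22, -0.23 and 0.24, and 0.14, -0.14 and 0.19 without control replicate 1 (limma adjusted p = 0.801 for each with all libraries).

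The eIF4G scaffolds bridge the cap-binding protein and eIF3, and the log2 fold changes of all 3 of their genes were positive with control replicate 1 and negative without it. Eif4g1 had 143, 150 and 155 FPKM in DOPAC libraries, against 106, 172 and 169 FPKM in controls, and Eif4g3 had 17.3, 18.5 and 18.7 FPKM, against 10.5, 22.7 and 20.9 FPKM. Without that library all DOPAC values lay below both remaining controls, and the log2 fold changes were -0.19 and -0.25 where they had been 0.03 and 0.08. Eif4g2, which encodes a relative that does not bind the cap protein, had 165, 195 and 202 FPKM with DOPAC, against 97.5, 194 and 194 FPKM in controls. The helicase cofactor gene Eif4h had 65.9, 81.1 and 81.1 FPKM, against 70.3, 95.7 and 91.5 FPKM, a log2 fold change of -0.17, or -0.30 without control replicate 1. Of the 11 genes in this group 8 had positive values with all libraries and 3 without control replicate 1 (median 0.08 and -0.10).

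Eif4ebp1, the gene of the binding protein that holds eIF4E inactive until mTOR phosphorylates it, had the largest log2 fold change of the 65 genes with all 6 libraries. It lies on chromosome 8 at 27260329 to 27276674 and had 22.5, 11.9 and 16.0 FPKM in DOPAC libraries, against 16.6, 9.58 and 7.64 FPKM in controls. Replicate 1 was the highest library of each group, and control replicate 1 lay above DOPAC replicate 2. The log2 fold change was 0.56 (95% interval -0.21 to 1.33) and 0.85 without control replicate 1, when the groups no longer overlapped. It was 0.34 without DOPAC replicate 1 and again without control replicate 3, and 0.49 without control replicate 2, where that of Eif2s3x was larger (0.42, 0.58 and 0.55). Between libraries of the same number the DOPAC library was the higher in all 3 cases, though no label says that the numbers mark pairs. With the replicate block the unadjusted limma p of Eif4ebp1 was 0.026 (limma adjusted p = 0.698). Its level per Eif4e was 0.538, 0.310 and 0.398 in DOPAC libraries, against 0.546, 0.279 and 0.197 in controls. Eif4ebp2, its more abundant paralog, had 36.9, 45.4 and 45.0 FPKM with DOPAC, against 28.7, 52.2 and 45.8 FPKM in controls. Eif4enif1, which encodes a protein that carries eIF4E into the nucleus, had 45.5, 45.9 and 48.6 FPKM, against 31.1, 44.8 and 50.1 FPKM.

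**Figure D4:**
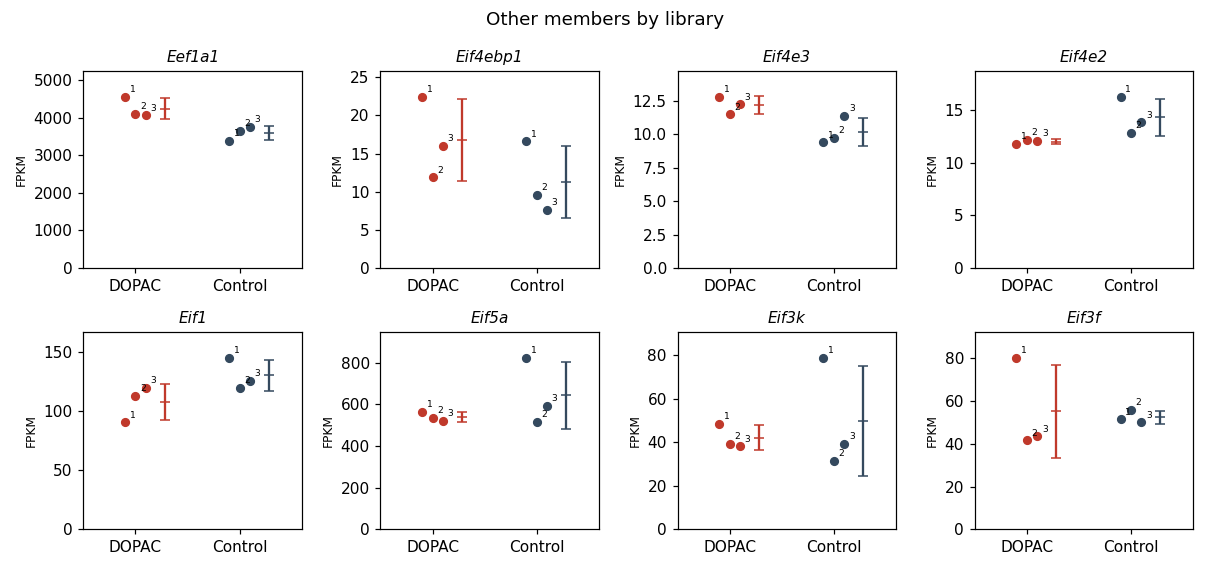
FPKM in each library (numbers are replicates, mean and SD beside the points) for 8 genes outside the eIF2 group. Eef1a1 and Eif4e3 have all DOPAC points above the controls, Eif4e2 and Eif1 all below, and in Eif5a, Eif3k and Eif3f a single library stands apart (823, 78.9 and 80.2 FPKM).

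A promoter element linked to growth was looked for in the same genes, since the E-box CACGTG, bound by MYC and related factors, is known in the Eif4e promoter. RefSeq promoters (250 bases before to 50 after each annotated start, GRCm38.p6) were found for 52 of the 65 genes, and 14 of these (26.9%) held CACGTG, which reads the same on both strands. The motif was present in 8.09% of all 27025 genes with RefSeq promoters, and in 12.6% of the 7687 such genes measured here. The 14 genes had a median log2 fold change of 0.02 and the other matched genes 0.10, or -0.01 and 0.00 without control replicate 1. A match is a sequence description only and says nothing about binding. A gene counted when any of its annotated starts had the motif. Genes with several starts thus had more chances to match, and numbers of starts were not compared. For Eif4e and 3 other genes the match nearest to an annotated start is shown as an example, with the motif in capitals, on the strand of the gene.
Eif4e (chr3:138527182-138527231, plus strand): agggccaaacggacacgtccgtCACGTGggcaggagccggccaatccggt
Eif4a1 (chr11:69672585-69672634, minus strand): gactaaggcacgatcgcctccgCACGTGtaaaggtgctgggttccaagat
Eif5a (chr11:69921433-69921482, minus strand): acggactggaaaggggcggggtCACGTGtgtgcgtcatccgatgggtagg
Eef2 (chr10:81176566-81176615, plus strand): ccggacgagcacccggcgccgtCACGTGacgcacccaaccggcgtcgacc
The motif begins 64 bases before the annotated start in Eif4e, 189 in Eif4a1, 74 in Eif5a and 43 in Eef2. Eif4e has a second match 228 bases before the same start. Eif5a has several annotated starts: the match shown is also 185 bases before another of them, and a further match lies 178 bases before its own start.

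Eif6, which keeps the large ribosomal subunit from joining too early, had 53.2, 48.0 and 51.6 FPKM in DOPAC libraries, against 59.7, 51.5 and 52.2 FPKM in controls. Eif5b, the GTPase of subunit joining, averaged 37.7 ± 0.538 FPKM with DOPAC and 35.1 ± 5.48 FPKM in controls (SD, n = 3 each). Eif5a, whose hypusine-bearing product helps ribosomes past stalling stretches such as prolines, had 564, 535 and 520 FPKM with DOPAC, against 823, 516 and 592 FPKM in controls. Its log2 fold change was -0.23, and -0.04 without control replicate 1, the high library. The minor paralog Eif5a2 had 5.93, 5.83 and 6.44 FPKM, against 2.50, 5.44 and 5.29 FPKM, with all DOPAC libraries above the controls and a log2 fold change of 0.44 (0.15 without control replicate 1). In control replicate 1 the paralogs thus deviated in opposite directions, and its ratio of Eif5a2 to Eif5a was 0.00304, where the other 5 libraries had 0.00892 to 0.0124.

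Eef1a1, on chromosome 9 at 78478449 to 78489151, was the most abundant of the 65 genes in every library. It had 4558, 4096 and 4055 FPKM in DOPAC libraries, against 3382, 3643 and 3755 FPKM in controls. The groups did not overlap, and its log2 fold change was 0.24 (95% interval -0.02 to 0.49), or 0.19 without control replicate 1. It made up 41.0%, 38.7% and 38.3% of the FPKM of the 65 genes with DOPAC, against 36.3%, 36.2% and 36.0% in controls, and this share did not overlap either. The other 64 genes together held 2.08%, 2.199% and 2.23% of all FPKM in DOPAC libraries, against 1.91%, 2.26% and 2.29% in controls. Control replicate 1 was the low library there, and both other controls lay above every DOPAC library. Reads of Eef1a1 are uncertain because 8 other genes with values here match it at 95% or more over at least 300 bases, among them Gm6170, which had 15.6 FPKM in control replicate 1 and 1.63 to 2.86 FPKM in the other 5 libraries.

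The exchange factor subunits of eEF1, which recharge eEF1A with GTP, had log2 fold changes of -0.07 for Eef1b2, 0.06 for Eef1g and -0.03 for Eef1d, and of 0.0096, 0.10 and 0.10 without control replicate 1. Eef1b2 averaged 221 ± 19.4 FPKM with DOPAC and 232 ± 25.7 FPKM in controls, Eef1g 530 ± 32.1 and 510 ± 34.8 FPKM, and Eef1d 48.3 ± 4.71 and 49.9 ± 9.52 FPKM (SD, n = 3 each). Groups overlapped in all 3. Eef2, the translocase gene on chromosome 10 at 81176631 to 81182498, had 1389, 1507 and 1483 FPKM in DOPAC libraries, against 1149, 1619 and 1526 FPKM in controls, with a log2 fold change of 0.04 (95% interval -0.32 to 0.41), or -0.11 without control replicate 1. Its inhibitory kinase gene Eef2k averaged 3.36 ± 0.157 FPKM with DOPAC and 3.28 ± 0.213 FPKM in controls.

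The 5 genes of methyltransferases that modify lysines of eEF1A and eEF2 were the role group with a negative median log2 fold change with all 6 libraries (-0.12, and -0.20 without control replicate 1), with 2 positive and 3 negative. That median was close to 0 without control replicate 3 (0.0071), without DOPAC replicate 1 (-0.027) and with a filter of 5 FPKM (-0.021). Eef1akmt1, the most abundant, had 22.6, 23.5 and 25.0 FPKM in DOPAC libraries, against 27.8, 18.6 and 21.9 FPKM in controls. Eef1akmt4 had 7.005, 7.58 and 6.70 FPKM with DOPAC, against 7.79, 8.17 and 9.04 FPKM in controls, with all DOPAC libraries below the controls. Its exons overlap Gm49333 over 30.7% of their length, so its reads are uncertain. Eef1aknmt, which encodes an enzyme that also methylates the amino end of eEF1A, had 4.40, 5.63 and 5.36 FPKM, against 4.12, 6.22 and 6.85 FPKM. Eef1akmt4 and Eef1aknmt were chosen for this account after their values were seen.

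Translation genes outside the name rule were read from a list of 42, all of which were measured, including poly(A)-binding proteins, mTOR complex and S6 kinase genes, release factors and the enzymes of hypusine and diphthamide. Of these 42, 0 were higher at an unadjusted p under 0.05, beside 2.73% of all genes, and 1 was lower, beside 1.46%. The adjusted test was passed by 0. The lower one was Rps6kb2, an S6 kinase gene, with 7.83, 11.98 and 12.6 FPKM in DOPAC libraries, against 25.4, 16.1 and 15.5 FPKM in controls, a log2 fold change of -0.75 with a 95% interval of -1.35 to -0.15 (adjusted p = 0.801 by limma), and -0.54 without control replicate 1. All DOPAC libraries lay below the controls. The ribosome recycling factor gene Abce1 had 92.8, 96.5 and 103 FPKM with DOPAC, against 51.5, 86.4 and 90.5 FPKM in controls, a log2 fold change of 0.39, or 0.14 without control replicate 1. Without control replicate 1, 1 of the 42 was higher and 8 of the 42 lower at an unadjusted p under 0.05, beside 5.57% and 8.89% of all genes. Then 30 of the 42 had negative log2 fold changes (median -0.08), against 13 with all libraries (median 0.05).

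Values of the 65 genes in control replicate 1 followed transcript length. Compared with the mean of the other 5 libraries on the log2(FPKM + 1) scale, the deviation of that library had a Pearson correlation of -0.56 and a Spearman correlation of -0.55 with log2 summed exon length over the 65 genes, which share the same libraries. Over 10802 genes with a length it was -0.52 and -0.61. The 32 genes shorter than the median of 4161 bp deviated by a median of 0.05, and the 33 others by -0.38. Of the 65 genes 39 had their lowest and 15 their highest value in control replicate 1, next to 58.6% and 20.9% of all genes. Of the 33 longer genes 29 had a positive log2 fold change with all libraries and 18 without control replicate 1, while of the 32 shorter genes it was 18 in both cases.

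**Figure D5:**
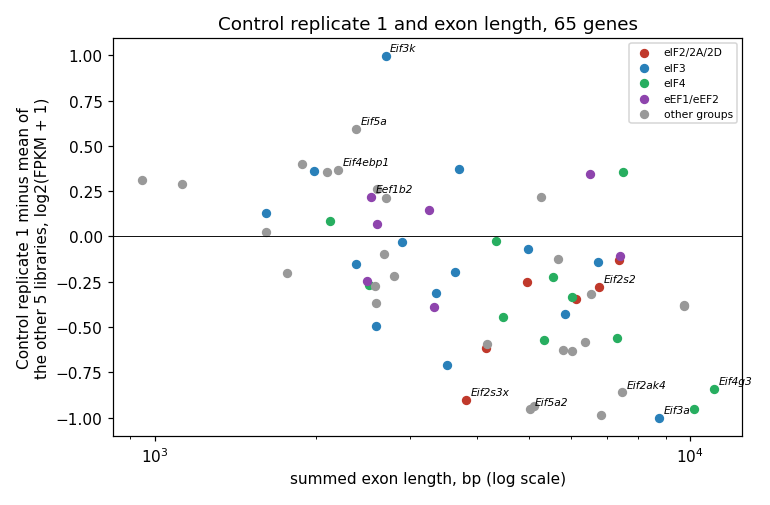
Deviation of control replicate 1 from the mean of the other 5 libraries on the log2(FPKM + 1) scale (vertical) against summed exon length on a log axis (horizontal), 1 point per gene, coloured by role. Long genes such as Eif4g2 (-0.95) lie below 0, short ones such as Eif5a (0.59) more often above, and all 6 genes of the eIF2 group lie below 0.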

How the data were processed

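The table the authors deposited gives FPKM for each gene in each library, and beside it log2 fold changes and p-values from their own comparison, per the file headers; the headers do not name its test. Per the labels' protocols, the kits were SMART-Seq HT for cDNA and Nextera XT for libraries, neither of which keeps strand, so a gene's reads cannot be separated from those of a gene overlapping it. Exon overlap of this kind was not limited to the genes flagged above. Among others, Gm17638 overlaps 43.3% of the exon length of Eif3d and Spg11 18.99% of Eif3j1. Rev1 overlaps 16.85% of Eif5b and Aimp2 8.59% of Eif2ak1. The submitters' processing notes name cutadapt 1.9, HISAT2 2.2.1 and the build mm10. Which estimator and annotation gave the FPKM is not given in the sources used here. Libraries were assigned by the library name in the labels; one title of a DOPAC library misspells the treatment.

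From the FPKM, log2(FPKM + 1) was computed for the 10887 genes averaging at least 1 FPKM (288 were left out), and R 4.3.3 with limma 3.58.1 fitted DOPAC against control, without a replicate block, with a variance trend (6.75 total degrees of freedom) and Benjamini-Hochberg adjustment over all genes. The fit was run on simulated data with known changes. The members, role groups and lists were chosen with earlier results of these data known. Per-library values are given for the 12 members with the smallest p, the most abundant of each role group and a fixed list of paralogs, in which Eef1a2 and Eif4ebp3 were not analysed here; Eif2a, Eif2b2, Eif3f, Eif3k, Eif4h, Eef1akmt4 and Eef1aknmt were added after their values were seen. Gene positions and summed exon lengths are those of GENCODE M21 (GRCm38), matched by gene ID for all 65. Near-copies were found by aligning transcripts at 95% identity over at least 300 bases. Such a match was found for 18 of the 65 genes. Among them were Eif4e, Eef2, Eef1g, Eif4a3 and Eif5a, so their reads are uncertain too. Both groups carry the same replicate numbers, and deviations from the group means of same-numbered libraries correlated at 0.34, 0.16 and 0.28. All exceed 0.1, so the fit with that number as a blocking factor is given as an alternative where it changes a count. Differently numbered libraries also correlated, at 0.19 and 0.24 between replicates 2 and 3, and no label ties a number to an animal or day. These correlations therefore cannot show whether libraries were paired. Other settings tried were the pseudocount, the filter, scaling, a length correction, the block, a robust variance prior and leaving out each library.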

Additional observations from a re-analysis of the deposited data

How the results depend on the processing

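Under every setting tried 0 of the 65 genes passed the limma adjusted threshold. The count of the 65 higher at an unadjusted p under 0.05 (1 as reported) is given here with the share of all genes in brackets. It was 2 with a filter of 5 FPKM (2.42%), 2 with quantile normalization (3.77%), 0 with equal FPKM sums (1.81%), 3 with equal medians (3.78%), 4 with the length trend removed (5.74%), 2 with the replicate block (2.55%) and 0 to 5 when 1 library was left out (1.13% to 5.57%). The count lower (0 as reported) was 1 with quantile normalization (2.34%), 1 with equal medians (2.53%), 2 with the length trend removed (5.0%) and 0 to 5 with 1 library left out (0.799% to 8.89%). Of the 42 further translation genes, removing the length trend gave 1 higher (5.74% of all genes) and 4 lower (5.0%). Leaving out 1 library gave 0 to 1 of the 42 higher (1.13% to 5.57%) and 0 to 8 lower (0.799% to 8.89%). The 8 lower came without control replicate 1 (8.89% of all genes). Of the 65, separated genes numbered 7 above (6.67% of all genes) and 8 below (6.73%) with equal FPKM sums. With equal medians they were 12 (11.8%) and 5 (7.29%). With 1 library left out, where fewer libraries have to differ, 13 to 26 were above (15.3% to 19.9%) and 5 to 14 below (6.06% to 21.5%). The 26 above came without control replicate 3 (19.9% of all genes) and the 14 below without control replicate 1 (21.5%). These separation counts were chosen after seeing the data. With control replicate 1 left out as well as the replicate block, 3 of the 65 were higher (5.58% of all genes) and 3 lower (9.9%), and of the further genes 1 and 5.

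Several log2 fold changes, all past no threshold in the full data, took the other sign under a setting, and the cause was not tested. With quantile normalization the log2 fold change was -0.12 for Eef2. With equal FPKM sums the log2 fold change was -0.0075 for Eif1ax and -0.023 for Eif3f. With equal medians the log2 fold change was -0.016 for Eef2, -0.038 for Eif1ax, -0.052 for Eif3f, -0.015 for Eif4ebp2 and -0.026 for Eif4g1, and -0.0032 for Eef1g. With the length trend removed the log2 fold change was -0.010 for Eef2, -0.088 for Eif1ax, 0.073 for Eif1b, -0.027 for Eif3f, -0.077 for Eif4ebp2, -0.11 for Eif4g1 and -0.10 for Eif4g3. Leaving out 1 library in turn gave -0.15 to 0.0096 for Eef1b2, -0.17 to 0.10 for Eef1d, -0.056 to 0.22 for Eef1akmt1, -0.30 to 0.0071 for Eef1aknmt, -0.11 to 0.14 for Eef2, -0.064 to 0.12 for Eif1ax, -0.12 to 0.11 for Eif1b, -0.047 to 0.42 for Eif2ak4, -0.069 to 0.16 for Eif2b5, -0.29 to 0.17 for Eif3f, -0.40 to 0.24 for Eif3k, -0.0057 to 0.33 for Eif4a2, -0.21 to 0.21 for Eif4ebp2, -0.022 to 0.31 for Eif4enif1, -0.19 to 0.15 for Eif4g1, -0.058 to 0.44 for Eif4g2 and -0.25 to 0.28 for Eif4g3. The replicate block on the 5 libraries other than control replicate 1 gave 0.027 for Eef1d, -0.072 for Eef2, 0.034 for Eif1b, -0.039 for Eif2ak2, -0.048 for Eif2ak3, -0.0085 for Eif2ak4, -0.043 for Eif2b5, -0.30 for Eif3f, -0.019 for Eif3j2, 0.14 for Eif3k, -0.11 for Eif4ebp2, -0.0038 for Eif4enif1, -0.16 for Eif4g1 and -0.21 for Eif4g3. FPKM hold no counts, so what depth limits cannot be given.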
